A study of Drosophila melanogaster with 2 samples.

Results

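The 8 genes described here are nompC, nan, iav, Pkd2, nompA, eys, ktub and DCX-EMAP. All but Pkd2, known in the fly for sperm movement, encode channels, dendrite-tip proteins or extracellular proteins of the insect mechanosensory organ. The 8 genes were chosen by name out of 13968 protein-coding genes on the 7 chromosome arms. They were examined in peak lists from chromatin immunoprecipitation sequencing of the transcription factor Rfx in Drosophila melanogaster. A gene was counted as having a peak where the peak's summit lay inside the gene or within 1 kb of one of its transcription start sites (TSS). There was 1 group of 2 biological replicates, both whole embryos aged 0 to 24 h of the Rfx-GFP strain, which carries an insertion that tags Rfx with eGFP. The precipitating antibody was against GFP per the labels, although their antibody field reads Rfx. Both replicates carried the same fusion, and no other genotype, age or treatment was compared, so the results describe where peaks lie and how strong they are. All embryonic tissues were pooled, so that a peak at few cells and a weak peak at many cells cannot be told apart.

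Mechanosensory neurons of the fly carry a modified cilium at the tip of the dendrite, where transient receptor potential (TRP) channels open when the cilium is stretched or bent. Support cells wrap the dendrite in a fluid-filled lumen and secrete the cap that links it to the cuticle. RFX factors switch on genes for building cilia through a palindromic DNA site, the X-box, and fly Rfx is needed for ciliated sensory neurons to form properly. The cells concerned are a small part of an embryo.

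With peaks off the 7 arms left out, the authors' lists were 1 thresholded main set of 9247 peaks, a conservative series-level set of 6978, and each replicate's own thresholded set, with 6290 peaks in replicate 1 and 6953 in replicate 2. Each has a matching ranked list without a threshold, of 106763, 90236, 80246 and 86098 peaks in the same order. Every peak has the authors' signal, an enrichment value of unstated scale that was compared within a list only, here as its percentile among the peaks of that list. It also has a score made from the irreproducible discovery rate (IDR), which is low for peaks that rank high, and alike, in the compared sets. The score reaches 1000 at most, and the lowest thresholded score, 830, equals an IDR of 0.01. Sequencing depth is unknown, because the lists give no reads.

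In the main set, 4 of the 8 genes had a peak (nompC, nan, eys and DCX-EMAP), against 43.0% of all protein-coding genes, so the share was near the background. In the conservative set 3 of 8 did (36.8% of all genes), in the replicate 1 set 2 of 8 (35.3%) and in the replicate 2 set 3 of 8 (36.5%). Only nan and eys had a peak in all 4 sets. These 4 genes held 5 peaks, of which nan had the strongest and nompC the only one within 500 bp of a start site of its own gene. The peaks of eys were far inside the gene, and the peak of DCX-EMAP was in its longest intron. The DNA at the 5 summits is printed next, to show the letters under each peak. All sequences are from the plus strand of the dm6 reference.

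The window of 100 bp either side of the nompC summit, at chr2L:5345953-5346153, held the hexamer GGCAAC, the letters of one X-box arm, on the minus strand, shown in capitals.
nompC summit window: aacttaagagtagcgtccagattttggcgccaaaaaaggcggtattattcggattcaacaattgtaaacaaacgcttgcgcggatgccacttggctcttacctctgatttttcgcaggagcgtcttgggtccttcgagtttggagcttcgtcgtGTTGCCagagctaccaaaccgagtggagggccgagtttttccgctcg
For nan the whole peak interval, chr3L:14190101-14190268, is shown, with the 11 bases centred on the summit in capitals.
nan interval: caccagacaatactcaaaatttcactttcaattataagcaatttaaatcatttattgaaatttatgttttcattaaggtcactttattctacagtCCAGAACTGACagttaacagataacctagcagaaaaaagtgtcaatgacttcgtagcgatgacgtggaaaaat
The stronger eys peak is the interval chr2L:2348625-2348744, with the same 11 bases in capitals.
eys interval: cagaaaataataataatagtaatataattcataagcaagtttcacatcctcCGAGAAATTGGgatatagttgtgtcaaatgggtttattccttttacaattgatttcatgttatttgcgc
The weaker eys peak is shown as 100 bp either side of its summit, chr2L:2357420-2357620, with the 11 summit bases in capitals.
eys summit window: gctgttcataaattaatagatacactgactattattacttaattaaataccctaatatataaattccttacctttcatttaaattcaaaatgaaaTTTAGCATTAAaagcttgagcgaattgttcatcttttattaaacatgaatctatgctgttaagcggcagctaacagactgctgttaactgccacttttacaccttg
The DCX-EMAP peak is shown in the same way at chr3L:14925625-14925825.
DCX-EMAP summit window: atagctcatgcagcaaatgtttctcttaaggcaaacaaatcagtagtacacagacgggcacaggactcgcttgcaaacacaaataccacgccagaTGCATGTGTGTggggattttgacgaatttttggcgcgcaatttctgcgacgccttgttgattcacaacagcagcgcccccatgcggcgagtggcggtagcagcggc

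The strict X-box was found at 0 of the 5 summits, searching both strands within 100 bp, and the degenerate X-box also at 0 of 5. Over the whole main set the strict form lay within 100 bp of 0.757% of summits and the degenerate form of 19.2%. The hexamer GGCAAC lay near 13.2% of summits and, among the 5, near that of nompC only. In plus-strand coordinates this copy began 54 bp after the nompC summit, and another copy on the minus strand began 153 bp before it, inside the peak interval. Base composition differed among the peaks: G and C made up 50.2% of the nompC window and 51.7% of the DCX-EMAP window, against a median of 38.8% over all main-set summits. The windows at nan (31.3%) and at both eys summits (29.4% each) were poorer in G and C than that median, and the eys windows fell below 29.9%, the value that marks the lowest 10% of the set.

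nompC encodes the pore-forming TRPN channel that gates touch and hearing transduction currents. The gene lies at chr2L:5346200-5365760 on the plus strand, and its peak, chr2L:5345881-5346224, had its summit 147 bp upstream of the start site, with the next TSS of another gene, that of Acsf2, 3819 bp away. Its signal was 92.7, at percentile 33.9 of the main set, 19.3 of the conservative set and 94.1 of the main ranked list, with an IDR of 0.00152. In replicate 1 the ranked signal was 40.3 at percentile 90.6, with a score of 773, and in replicate 2 it was 46.5 at percentile 92.0, with a score of 401. The replicates placed the peak close together in rank, at 91.3 ± 1.01 (SD, n = 2), but both scores were under 830 and the peak was in neither replicate's own thresholded set. Over all main-set peaks matched in both replicates, the median SD was 1.29 and the upper quartile 3.72, so such closeness was usual. Of all main-set peaks, 18.7% were in neither replicate's set, and 5.57% were in neither but in the conservative set, as the nompC peak was.

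nan and iav encode TRPV channel subunits that work together in the cilium of chordotonal (stretch-receptor) neurons. The nan gene, chr3L:14186249-14189648 on the minus strand, had the strongest peak of the 8 genes, chr3L:14190101-14190268. Its signal was 292, at percentile 83.2 of the main set and 77.9 of the conservative set. In replicate 1 the signal was 154 at percentile 97.7 of the ranked list and 70.9 of the thresholded set, and in replicate 2 it was 136 at percentiles 98.4 and 80.4. Both replicates gave the highest score, 1000, and a ranked percentile of 98.0 ± 0.499 (SD, n = 2). The summit was 553 bp upstream of the nan start and 669 bp upstream of the nearest start of nuf, which is transcribed in the other direction, so the peak lies between divergent genes whose starts are 1222 bp apart and can be given to either. nuf encodes a protein of recycling endosomes. A further main-set peak, chr3L:14190836-14190938 with a signal of 222.6, had its summit 13 bp from the nearest nuf start site and 1238 bp from the nan start, beyond the 1 kb window. The nan peak was 168 bp wide, and 15.8% of main-set peaks were narrower than 200 bp, against a median width of 344 bp.

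iav, at chrX:6813978-6818156, had no thresholded peak in any of the 4 sets. Its 6 peaks in the main ranked list had signals from 12.7 to 25.3, percentiles from 22.6 to 54.0 and a highest score of 142. Replicate 1 ranked 6 peaks there, at percentile 32.0 at most, and replicate 2 ranked 4, at 49.5 at most. All stood well below the percentiles near and above 90 at which the nompC and nan peaks stood in both replicates. The nompC and nan peaks had passed an IDR threshold that favours high rank, so a gap to uncalled peaks follows from that choice. The nearest main-set summit was 6982 bp from the iav start, against a median of 2537 bp over all genes, and 30.0% of genes were as far or farther.

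Pkd2 encodes a polycystin channel of the TRPP family, known in the fly for its part in sperm movement. It had 0 peaks in all 4 ranked lists, as did 8.09% of protein-coding genes. The nearest summit in the main ranked list was 10856 bp from its start, and 4.02% of genes had none nearer. The nearest main-set summit was 23792 bp away, as far as or farther than for all but 9.31% of genes. The files do not show whether a region without ranked peaks had reads.

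nompA encodes a zona pellucida domain protein of the dendritic cap, and had no thresholded peak. In replicate 1 it held 7 ranked peaks at percentiles from 15.1 to 83.4 with a highest score of 84, and in replicate 2 and both series-level ranked lists it held 0. Of the 2362 genes with 7 or more ranked peaks in replicate 1, 93 (3.94%) had 0 in replicate 2, and in the opposite direction the share was 3.90%. The nearest main-set summit was 9779 bp from a nompA start.

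eys encodes the secreted proteoglycan of the lumen around the cilium, and is also known from the space between the light-sensing membranes of the fly eye. It was the longest of the 8 genes, at chr2L:2311680-2358944, and held 2 main-set peaks 8839 bp apart. The stronger, chr2L:2348625-2348744, lay 37.0 kb into the gene in intron 6 of 13, with a signal of 179 at percentile 68.1 of the main set. In replicate 1 its signal was 107 at ranked percentile 96.4, and in replicate 2 it was 66.7 at 95.2, so the replicates stood at 95.8 ± 0.856 (SD, n = 2) and both held it in their thresholded sets. This peak is also inside CG9967, a gene on the opposite strand at chr2L:2308761-2357356 that overlaps most of eys, and its summit was 8675 bp from the CG9967 start.

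The weaker eys peak, chr2L:2357348-2357691, lay in the last intron, 45.84 kb from the eys start but 164 bp upstream of the CG9967 start. Its signal was 81.8, at percentile 24.9 of the main set and 11.6 of the conservative set. Replicate 1 ranked it at 91.2 with a score of 786, just under the threshold, and replicate 2 at 91.4 with a score of 835, just over it. The percentiles of the replicates were thus nearly equal, 91.3 ± 0.145 (SD, n = 2), while only the set of replicate 2 held the peak. Their summits did not coincide, at 85 bp (replicate 1) and 194 bp (replicate 2) upstream of the CG9967 start. By position, neither eys peak can be given to eys over CG9967, since a CG9967 start was nearer to both summits than the eys start. The next eys summit, 1597 bp beyond the stronger one, had a signal of 66.3 and a score of 756 in the main ranked list and was not called.

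ktub encodes the tubby-family protein that helps place channels in the cilium. It had no main-set peak. In the main ranked list its promoter peak had the highest score under the threshold among the 8 genes, 798, with an IDR of 0.0119, a signal of 59.2 and a summit 205 bp upstream of the ktub start. In the conservative ranked list the same peak scored 122. Uncalled peaks scored higher there at another place in ktub (548, in intron 1) and at eys (542), nompC (505), DCX-EMAP (424) and nan (322). Replicate 2 called it, with a summit 117 bp upstream, a signal of 40.9, a score of 867, percentile 90.5 of the ranked list and 7.21 of the thresholded set. Replicate 1 ranked it at percentile 53.9 with a signal of 17.4 and a score of 219. The replicates stood at 72.2 ± 25.9 (SD, n = 2). The uncalled peaks with the highest score at nompC, nan, iav and eys, which like this one did not pass the IDR threshold, had SDs from 9.17 to 18.1.

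DCX-EMAP encodes a doublecortin-domain microtubule-associated protein of the sensory cilium tip. Its gene, chr3L:14903805-14942907, has 3 start sites, and the peak chr3L:14925553-14925896 had its summit 707 bp upstream of the third one, in intron 1 of 10 of a longer transcript. The signal was 75.4, at percentile 19.0 of the main set, with an IDR of 0.00352. Replicate 1 ranked the peak at percentile 90.6 with a signal of 40.2 and a score of 726. Replicate 2 ranked no peak there, and the conservative set did not hold it. Only 3.09% of main-set peaks were matched in replicate 1 alone, 7.30% in replicate 2 alone and 88.9% in both. No start site of another gene was within 18.6 kb.

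The whole DCX-EMAP gene differed between the replicates: replicate 1 ranked 24 peaks in or near it and replicate 2 ranked 0, with 70.451 kb between the replicate 2 summits on either side of the gene. Of the 709 genes with 20 or more ranked peaks in replicate 1, 28 (3.95%) had 0 in replicate 2, and of the 866 such genes in replicate 2, 2 (0.231%) had 0 in replicate 1. Of all genes over 20 kb, 7.65% had 0 ranked peaks in replicate 2 and 3.04% had 0 in replicate 1. The part that this plays in the main-set call was not tested.

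**Figure D1:**
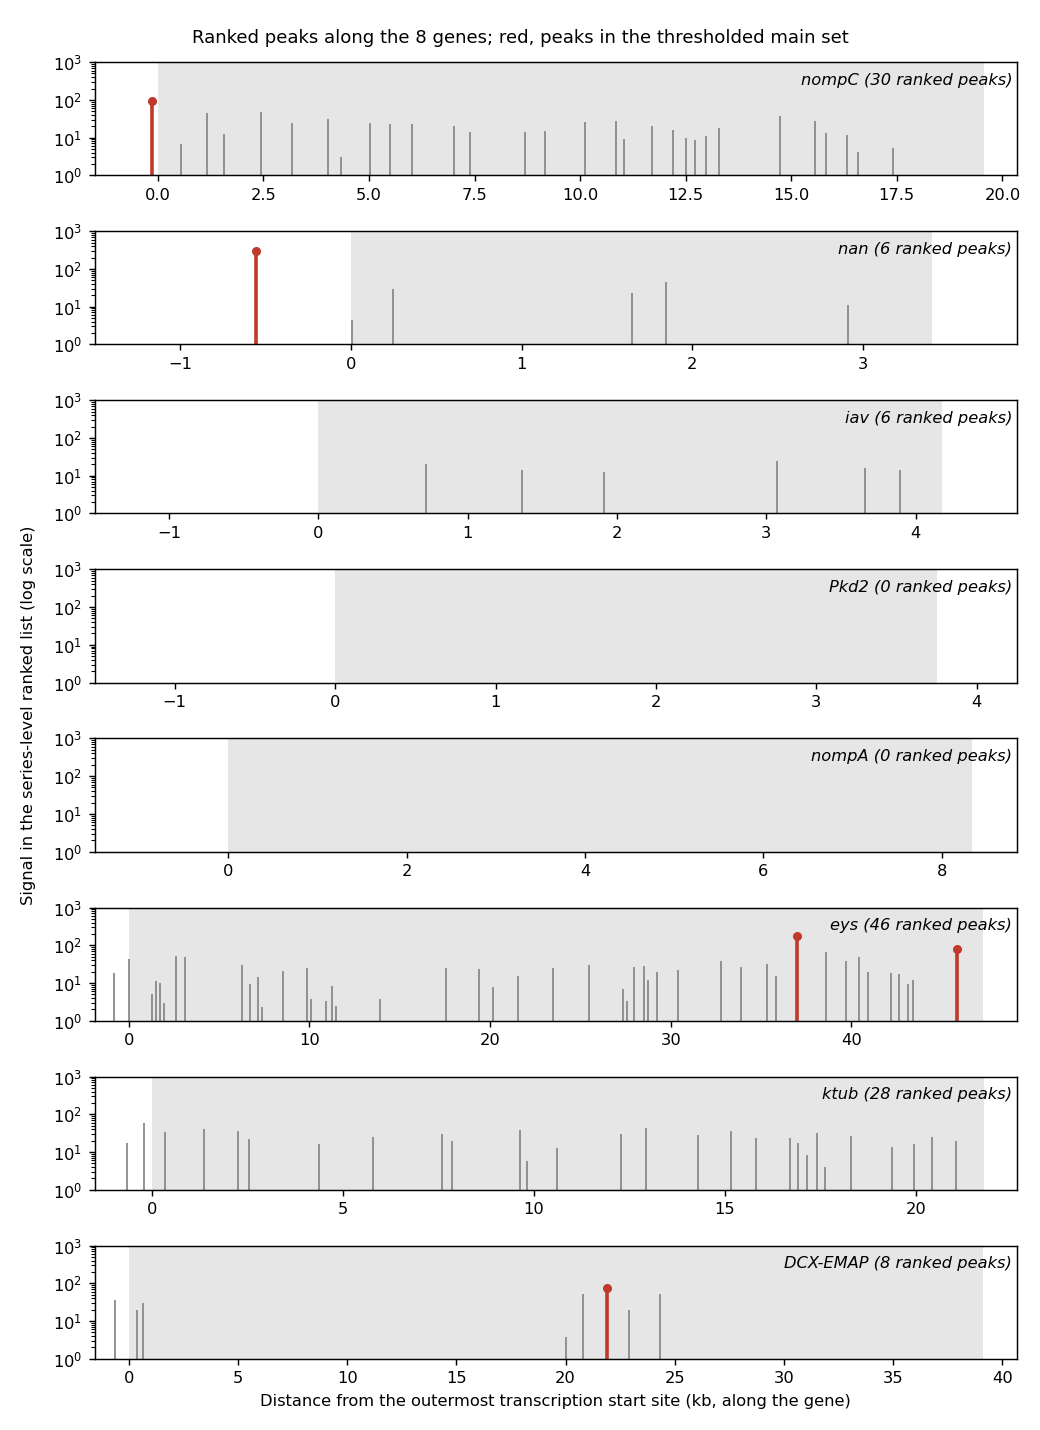
Peaks of the main ranked list along each of the 8 genes, with distance from the outermost start site in kb along the gene on the x axis and signal on a log scale on the y axis. The shaded block is the gene, grey lines are ranked peaks and red lines with dots are the 5 main-set peaks. Those of nompC and nan lie upstream of the start, those of eys near the far end and that of DCX-EMAP in the middle, while Pkd2 and nompA are empty.

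**Figure D2:**
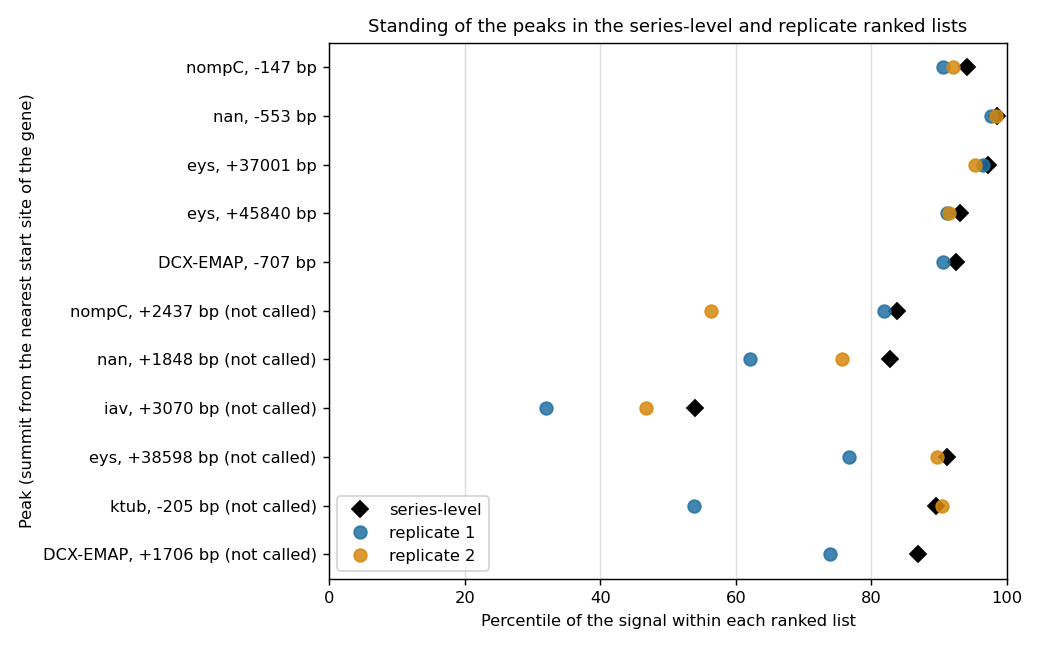
Percentile of the signal within each ranked list on the x axis, for the 5 main-set peaks and for the uncalled peak with the highest IDR score at each of 6 genes on the y axis. Diamonds are the main ranked list, blue points replicate 1 and orange points replicate 2. The called peaks, chosen by an IDR threshold that favours high rank, stand above 90 in every list that holds them. The ktub promoter peak has the widest gap between replicates, 53.9 against 90.5.

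The ranked lists are dense, and 84.4% of all protein-coding genes held at least 1 peak of the main ranked list by the rule, so that the 6 of 8 genes found there tell little about the genes. The conservative ranked list likewise held peaks at 6 of 8 genes (77.3% of all genes), that of replicate 1 at 7 of 8 (81.1%) and that of replicate 2 at 5 of 8 (81.6%). The 3 genes over 20 kb held 46 (eys), 28 (ktub) and 8 (DCX-EMAP) peaks in the main ranked list. nompC, at 19.561 kb, held 30. The short genes nan and iav held 6 each.

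**Figure D3:**
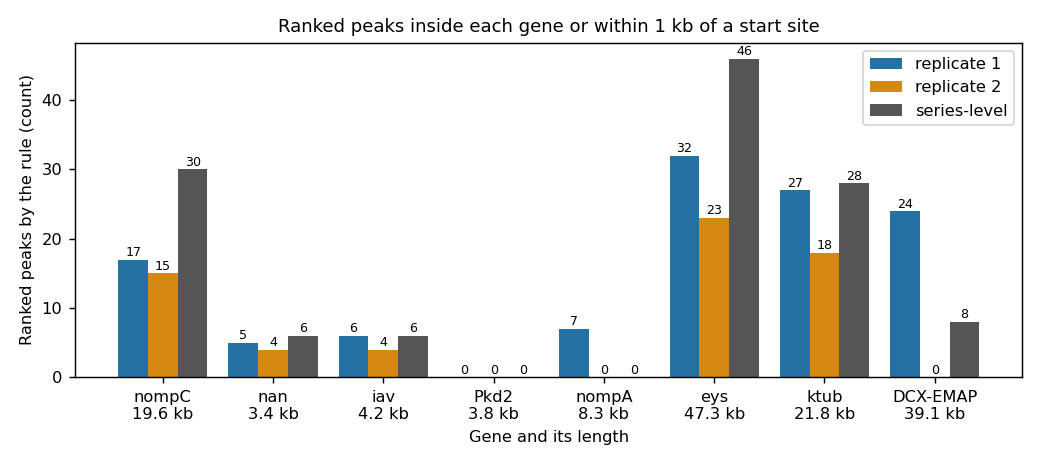
Number of ranked peaks by the rule on the y axis for each of the 8 genes on the x axis, with gene length under the name. Bars are replicate 1, replicate 2 and the main ranked list. DCX-EMAP (24 against 0) and nompA (7 against 0) have ranked peaks in replicate 1 and none in replicate 2, and Pkd2 has 0 in all.

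The share of genes with a main-set peak also differed with gene length. The rule accepts summits anywhere in a gene, and its part in this was not tested. Of genes under 5 kb, 35.0% had a main-set peak, and of the 3 short genes here 1 did (nan, not iav or Pkd2). In the class from 5 to 20 kb the share was 63.3%, with nompC called and nompA not. Above 20 kb it was 75.7%, with eys and DCX-EMAP called and ktub not. With summits within 1 kb of a start site only, the shares were 34.3%, 56.4% and 53.9%, and 3 of the 8 genes were called (nompC, nan and DCX-EMAP), against 39.6% of all genes. Within 500 bp, 1 of the 8 was called (nompC), against 35.4%. Inside the gene or within 2 kb, the same 4 genes were called as by the main rule (48.4% of all genes), as they were with any overlap of the peak interval in place of the summit (44.3%). Where no other gene's start site could be nearer to the summit, 3 were called (31.9% of all genes), and eys was not.

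**Figure D4:**
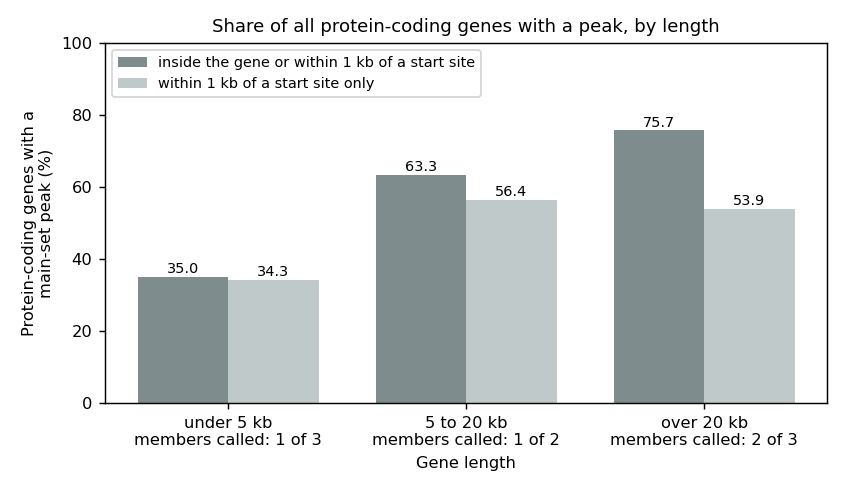
Share of all protein-coding genes with a main-set peak on the y axis, in percent from 0 to 100, for 3 classes of gene length on the x axis. Dark bars use the full rule and light bars only summits within 1 kb of a start site, and the share rises with length under the full rule, from 35.0% to 75.7%.

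The promoters, taken as 250 bp before to 50 bp after each start site, were searched for the same motifs because an X-box is known mainly from promoters. None of the 8 held a strict X-box, which 1.15% of all protein-coding genes did. The degenerate form, which 36.2% of genes held, was found in those of iav, Pkd2, eys, DCX-EMAP and ktub, so in 5 of 8. All but that of ktub are printed with 7 bases either side and the match in capitals, on the plus strand of dm6, to show the letters behind each match. They lie at chrX:6813976-6814003, chr2L:12398087-12398115, chr2L:2311632-2311658, chr3L:14903602-14903628 and chr3L:14903805-14903833.
iav promoter match: gggtgggGTTACCAGGACAACgagctgg
Pkd2 promoter match: gatatacGCCACTGTTAATAACataaatc
eys promoter match: ggactcgGCTTTTCGGGAACgatggct
DCX-EMAP promoter match: gttaaagGCTATCAGAGAACtgtgaag
DCX-EMAP promoter match: caaaaatATTATTTAAAATGACttaaatt
The iav match read as a degenerate X-box on both strands, beginning 5 bp after the start site. The fewest mismatches to the strict X-box anywhere in the promoter was 1 for iav, Pkd2 and nompC and 2 for the other 5 genes, and 18.2% of all genes had 1 or 0. None of the degenerate promoter matches lay at a main-set peak. The nompC promoter, whose best match had 1 mismatch to the strict form, overlaps the nompC main-set peak. GGCAAC was found in the promoters of nompC, nompA and DCX-EMAP, against 22.2% of all genes. The nompC copy is the one already described 54 bp after the nompC summit, inside the main-set peak. Within the genes and 1 kb either side, a strict X-box lay in nompC and ktub, as in 15.5% of genes. The one in nompC lay 11.4 kb into the gene, 8487 bp from the nearest main-set summit.

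Other genes of the same organs and channel families give the setting. Of 19 other TRP, Piezo, TMC and related channels, 9 (47.4%) had a main-set peak. The strongest were at Trpm (signal 829), pyx (566) and Piezo (490), all above that of nan. The pyx summit was nearer to a start site of CG33229 (172 against 611 bp) and the Piezo summit to one of Acbp1 (205 against 416 bp), so these peaks can be given to either gene. Trpm and pyx encode TRP channels of the TRPM and TRPA families, and Piezo a stretch-gated channel. Of 12 further genes of the dendrite, cap, lumen and sheath, 5 (41.7%) had one, led by Tusp (418), a tubby-family gene, crb (404), an apical polarity determinant, and qsm (176), a zona pellucida domain gene. The Tusp summit was nearer to a start site of dsd (43 against 440 bp). Of 6 regulators of sensory neurons, only Rfx itself had one (16.7%), with a signal of 646 in an intron 990 bp upstream of a start site. The first 2 lists were thus near the 43.0% of all genes, and the regulators were too few for the share to be read.

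Among the 15 listed genes with a main-set peak matched in both replicates, likeness was measured as the Euclidean distance between percentiles in the 2 ranked lists. nompC was nearest to brv3 (distance 2.25), trpl (2.39) and dpy (6.07). For nan the nearest were Tmem63 (1.02), crb (1.07) and wtrw (1.15), and for the stronger eys peak qsm (1.57), Tmem63 (3.41) and wtrw (3.96). These distances rest on 2 samples and on genes chosen by name, and DCX-EMAP had none because replicate 2 lacked its peak. The summits at brv3 (46 against 183 bp) and Tmem63 (46 against 154 bp) were nearer to a start site of another gene. So were those at trpl (1699 against 2672 bp) and dpy (506 against 8489 bp). Such peaks can be given to either gene. The summits at crb, wtrw and qsm were nearer to a start site of their own gene.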

How the data were processed

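Peaks of 2 biological replicates of whole embryos were deposited by the authors as 4 thresholded sets and 4 ranked lists on dm6, per the labels, from chromatin sonicated to 200 to 800 bp. The deposited signal is the peak caller's enrichment. The deposited score restates the IDR in whole numbers, and the authors also deposited it as −log10 in the ranked lists, from which the IDR was computed. No aligner or caller is given in the sources used here, and the control library was not analysed here. In the ranked lists, 32 columns of the compared inputs (8 in each) were not used.

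Peaks on 7 arms were kept, and genes were those of Ensembl release 115 (BDGP 6.54). A replicate's peak matched a main-set peak where it held the main summit. A percentile is the share of a list with an equal or lower signal. Motifs were matched without mismatch on both strands: the strict X-box, a palindrome with a spacer of 0 to 3 bases; the degenerate X-box, a looser form; and GGCAAC, which a strict X-box can contain. The genes named are the 8 genes, the gene with the nearest other start site to each peak, from each of 3 related lists the 3 (or fewer) whose main-set peak was strongest, and the 3 most alike for each gene with a peak. nuf's own peak, CG33229, Acbp1 and dsd were named after their values were seen. The genes and lists were chosen with earlier results of these data known. No condition was contrasted and no test was run. The assignment of summits to genes was tested on simulated data. Python 3.11.15, numpy 2.4.6, pandas 2.3.3 and matplotlib 3.10.9 were used.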

Additional observations from a re-analysis of the deposited data

How the results depend on the processing

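The count of 4 genes with a peak became 2 to 3 with 1 replicate left out (nan and eys in replicate 1; nan, eys and ktub in replicate 2), 1 with summits within 500 bp of a start site, 3 in the conservative set and 6 in the main ranked list. It remained 4 at a score of 1000, at 2 kb and with any overlap. The 5 peaks became 2 to 4 with 1 replicate left out, 1 within 500 bp, 3 within 1 kb of a start site only, and 3 where no other start site was nearer, which dropped both eys peaks. For the strongest main-set peak of each of the 4 genes, the median percentile, 51.0, became 58.5 in the conservative set, 62.0 to 63.4 in the replicates' own sets, 93.5 in the replicate 1 ranked list and 95.2 in the replicate 2 ranked list. Each list has its own length, and each median covers the main-set peaks found there, so that peaks of ktub, iav and nompA do not enter. DCX-EMAP drops out of the conservative set and of both replicates' own sets, and nompC out of the replicates' own sets. The genes that remained stood lower there than in the main set. In the conservative set nan went from 83.2 to 77.9, eys from 68.1 to 58.5 and nompC from 33.9 to 19.3. In the replicates' own sets nan stood at 70.9 and 80.4, and eys at 56.0 and 43.6. The count of peaks with an X-box stayed at 0 within 50 and 150 bp, in the whole interval and for the degenerate form, and was 1 for GGCAAC. No paired analysis was possible because no groups were compared and no test was run. Depth limits what an absent peak shows, and it is unknown here.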

Other observations

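The peak at the nuf start beside nan was ranked by replicate 2 with a signal of 173 at percentile 98.9, and no peak of the replicate 1 ranked list held its summit.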
